A study of Bos indicus with 12 samples.

Results

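ECP was compared with CON within the cows of this study that were later found not to be pregnant. These were 6 of the 12 cows sequenced, chosen by the pregnancy status and treatment that the sample labels give. The ECP cows were B0646, C317 and E0952, and the CON cows were 1814, B1042 and X228, so that 3 treated cows stood against 3 untreated cows and no cow belonged to both groups. The endometrium was taken by biopsy of the uterine body on D 6, in days from timed insemination, when the later pregnancy status was not yet known, and RNA-seq gave 1 library per cow.

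All cows were suckled anestrous Nelore beef cows and shared the synchronization protocol, which gave estradiol benzoate and a progesterone (P4) insert at the start, cloprostenol to lyse any corpus luteum, and buserelin, a GnRH agonist, at timed insemination. ECP cows received in addition 1 mg of estradiol cypionate, an ester from which estradiol is released slowly, when the insert was removed, and CON cows received none at that time. Estrus had been seen in each sequenced ECP cow and in none of the CON cows, by selection, so treatment and estrus cannot be told apart here. Each group held 3 separate animals, so the spread between libraries includes the variation between cows.

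In cattle, the estradiol of proestrus acts through its receptors in the endometrium and induces progesterone receptors, and the progesterone of the following days then turns the tissue toward secretion. The epithelium and glands take up and release ions, amino acids, proteins and lipids into the lumen, where the early embryo depends on them. A biopsy of the whole endometrium mixes luminal and glandular epithelium, stroma, vessels and leukocytes. In such bulk RNA, fewer cells of a type and less RNA per cell cannot be told apart.

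The total count per cow ranged from 10662044 to 13245891, and between 16683 and 16977 genes had at least 1 count. Of the 24616 gene IDs in the table, 15161 had normalized counts that averaged above 5 in the 12 cows and were tested, and 123 of these, which are all the IDs with a symbol here, could be named. Those symbols were listed by the study for genes that differed between ECP and CON over all 12 cows, the 6 described here included. The direction of a named gene is therefore not independent evidence, and its values are given as a description. A list of 30 cell type markers could not be examined, because 0 of them could be matched to a gene ID, so the labelled tissue was not checked by markers.

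With edgeR's quasi-likelihood test, 0 genes (0% of 15161) passed a threshold of 0.10 on the p adjusted by the method of Benjamini and Hochberg, and the lowest adjusted p was 0.71. At an unadjusted p under 0.05, 540 genes were higher in ECP (3.56%) and 501 were lower (3.3%), together 1041. limma voom also called 0 genes at the adjusted threshold, with 1008 at the unadjusted one. DESeq2 called 59 genes (0.389%), of which 28 were higher and 31 lower in ECP, and 57 of them were among the 100 genes of lowest p with edgeR. The DESeq2 calls are an alternative to the main test, which did not make them, and limma voom did not make them either. When edgeR was fitted to the 6 non-pregnant cows alone, 1 gene passed (0.0066%). The DESeq2 count was 24 without CON cow B1042, 38 without ECP cow C317, 21 without ECP cow E0952 and 116 without ECP cow B0646.

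Most genes differed little between ECP and CON. On the log2 scale the absolute difference had a median of 0.18, and 84.3% of genes lay within 0.5 of 0. A change beyond 1 on the log2 scale was found for 370 genes that were higher and 363 that were lower in ECP, and 588 of them were among the 3791 genes of lowest counts. In 267 of these 733 genes the 3 ECP and the 3 CON cows did not overlap. Among the 3790 genes of highest counts, the median absolute log2 fold change was 0.12 and 30 genes were beyond 1. Over all genes tested, the 3 ECP cows lay all above the 3 CON cows in 1073 genes (7.08%) and all below them in 1180 (7.78%).

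**Figure D1:**
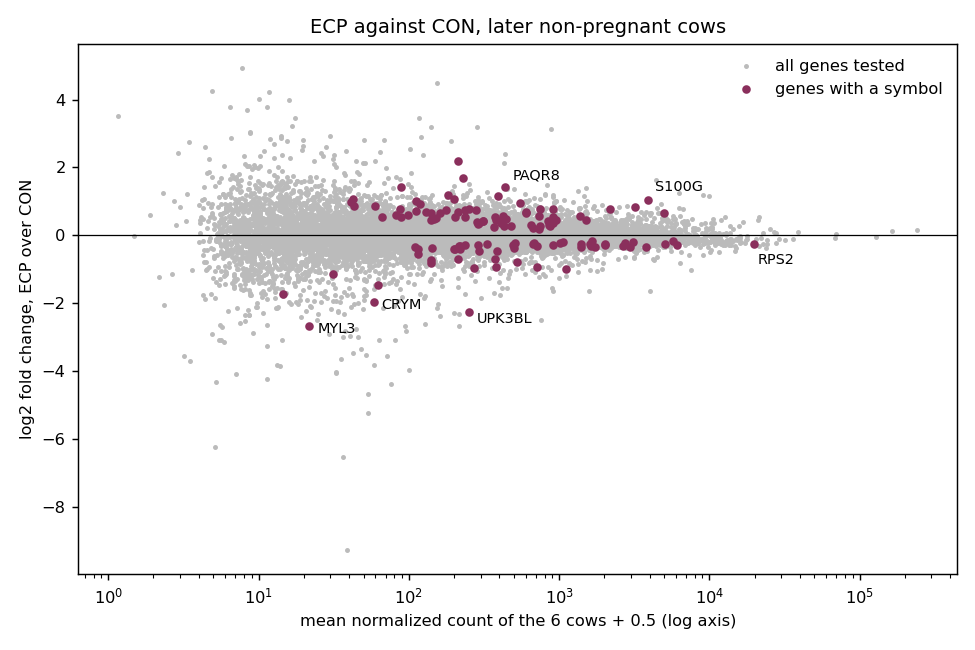
Log2 fold change of ECP over CON (vertical axis) against the mean normalized count of the 6 later non-pregnant cows plus 0.5 (horizontal log axis), for the 15161 genes tested in gray and the 123 genes with a symbol in color. The spread of gray points narrows toward high counts, S100G and PAQR8 lie above 0, and CRYM, UPK3BL and MYL3 are among the lowest colored points.

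The gene of lowest p, with edgeR and with DESeq2, is known here only by its ID, ENSBTAG00000023600. Its normalized count was 2348, 2084 and 2030 in CON cows 1814, B1042 and X228 and 6584, 6306 and 7120 in ECP cows B0646, C317 and E0952. The groups were far apart and each varied little, with a mean of 6670 ± 414 (SD, n = 3) in ECP and 2154 ± 170 (SD, n = 3) in CON. The fold change was 3.1, or 1.63 on the log2 scale (SE 0.27), with an adjusted p of 0.71 in edgeR and of 2.4e-05 in DESeq2. It was the 1 gene called by edgeR in the 6 cows alone, with an adjusted p of 0.012, which ranged from 0.0609 to 0.103 as each cow was left out. In the later pregnant cows the direction was the opposite. There the CON cows had normalized counts of 12121, 6802 and 5186 and the ECP cows 4123, 5069 and 3237, a log2 fold change of -0.95.

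ENSBTAG00000010531, also without a symbol, was the other ID of lowest p among those higher in ECP. Its normalized counts were 500, 339 and 476 in CON and 1049, 1384 and 1218 in ECP, in the same order of cows. The groups did not overlap, and the log2 fold change was 1.48 (SE 0.26), against 0.05 in the pregnant cows. Lower in ECP were ENSBTAG00000019683, with 48.4, 102 and 85.6 in CON against 29.4, 24.6 and 15.8 in ECP, and ENSBTAG00000038949, with 272, 207 and 227 against 130, 135 and 140. Both pairs of groups were separate, at log2 fold changes of -1.75 (SE 0.36) and -0.80 (SE 0.19). All 3 of these IDs passed with DESeq2, at adjusted p-values of 0.00038, 0.014 and 0.056. None passed with edgeR, where the adjusted p was 0.71 for each.

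Among the 123 genes with a symbol, DESeq2 called 10, against 59 (0.389%) of the 15161 genes tested, and edgeR called none. The 10 were PAQR8, LOC618369, SIPA1L2 and S100G, higher in ECP, and CRYM, UPK3BL, C28H10orf116, CAMK1, C14H8orf59 and MYL3, lower in ECP. The 123 genes as a group had been chosen on these cows, and 68 were higher and 55 lower in ECP. The 3 ECP cows were all above the CON cows in 48 and all below them in 41, against 7.08% and 7.78% of all genes tested. An unadjusted p under 0.05 was found for 59 higher and 39 lower genes, against 3.56% and 3.3%. The choice on these cows favored all of these counts, the 10 DESeq2 calls included.

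UPK3BL, a uroplakin-like protein of the cell surface, had the largest log2 fold change of the genes lower in ECP that DESeq2 called with a symbol, after MYL3. Its values were 218, 762 and 274 in CON cows 1814, B1042 and X228 and 86.1, 73.7 and 100 in ECP cows B0646, C317 and E0952. Every ECP cow was below every CON cow, and B1042 stood high within CON. The log2 fold change was -2.27 (SE 0.46), with an adjusted p of 0.71 in edgeR and 0.0012 in DESeq2. Without B1042 the log2 fold change of UPK3BL was -1.51.

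CRYM, mu-crystallin, a protein that binds thyroid hormone in the cytosol, was at normalized counts of 121, 57.8 and 98.8 in CON and 30.3, 29.0 and 11.6 in ECP. No ECP cow reached the lowest CON cow. The level was 3.87-fold lower in ECP, with a log2 fold change of -1.95 (SE 0.39) and an adjusted p of 0.71 in edgeR and 0.0038 in DESeq2. CRYM and UPK3BL were the genes with a symbol that DESeq2 still called whichever of the 6 cows was left out. Of the 10 genes, 8 were still called without B0646, and 4 without each of the other cows, and these 4 were not the same genes from cow to cow.

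PAQR8 encodes a membrane progesterone receptor, which responds to progesterone at the cell surface. Normalized counts were 265, 244 and 206 in CON and 505, 470 and 937 in ECP. The groups were apart, and E0952 stood above the other ECP cows. The mean was 638 ± 260 (SD, n = 3) in ECP against 238 ± 29.6 (SD, n = 3) in CON, a log2 fold change of 1.42 (SE 0.32), with an adjusted p of 0.71 in edgeR and 0.036 in DESeq2. Without E0952 the log2 fold change was 1.03.

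S100G is calbindin-D9k, an intracellular calcium-binding protein of uterine epithelium that responds to steroid hormones in rodents. It was measured at 2675, 2908 and 2065 in CON and at 3832, 3961 and 7929 in ECP. All ECP cows were higher than all CON cows, and E0952 had about the sum of the other ECP cows. The log2 fold change was 1.04 (SE 0.28), with an adjusted p of 0.71 in edgeR and 0.078 in DESeq2. Without E0952 it was 0.61.

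MYL3, an essential light chain of myosin in slow and cardiac muscle, was at 38.1, 19 and 52.7 in CON and 4.9, 1.8 and 10.5 in ECP. These were low counts with no overlap, and the log2 fold change was -2.67 (SE 0.67). CAMK1, a kinase activated by calcium and calmodulin, was lower, with 436, 445 and 518 in CON against 311, 248 and 297 in ECP. The log2 fold change of CAMK1 was -0.71 (SE 0.17), smaller than that of MYL3 and with less spread between cows.

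C28H10orf116, named only as an open reading frame, had 1003, 811 and 1015 in CON against 648, 386 and 436 in ECP. C14H8orf59, likewise an open reading frame, had 257, 304 and 233 against 170, 176 and 138. SIPA1L2, a protein with a Rap GTPase-activating domain, had 472, 386 and 524 in CON against 891, 698 and 617 in ECP. LOC618369 had 676, 488 and 483 against 767, 924 and 1110. None of these groups overlapped, and their log2 fold changes were -0.94 (SE 0.21), -0.71 (SE 0.17), 0.68 (SE 0.16) and 0.77 (SE 0.17).

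**Figure D2:**
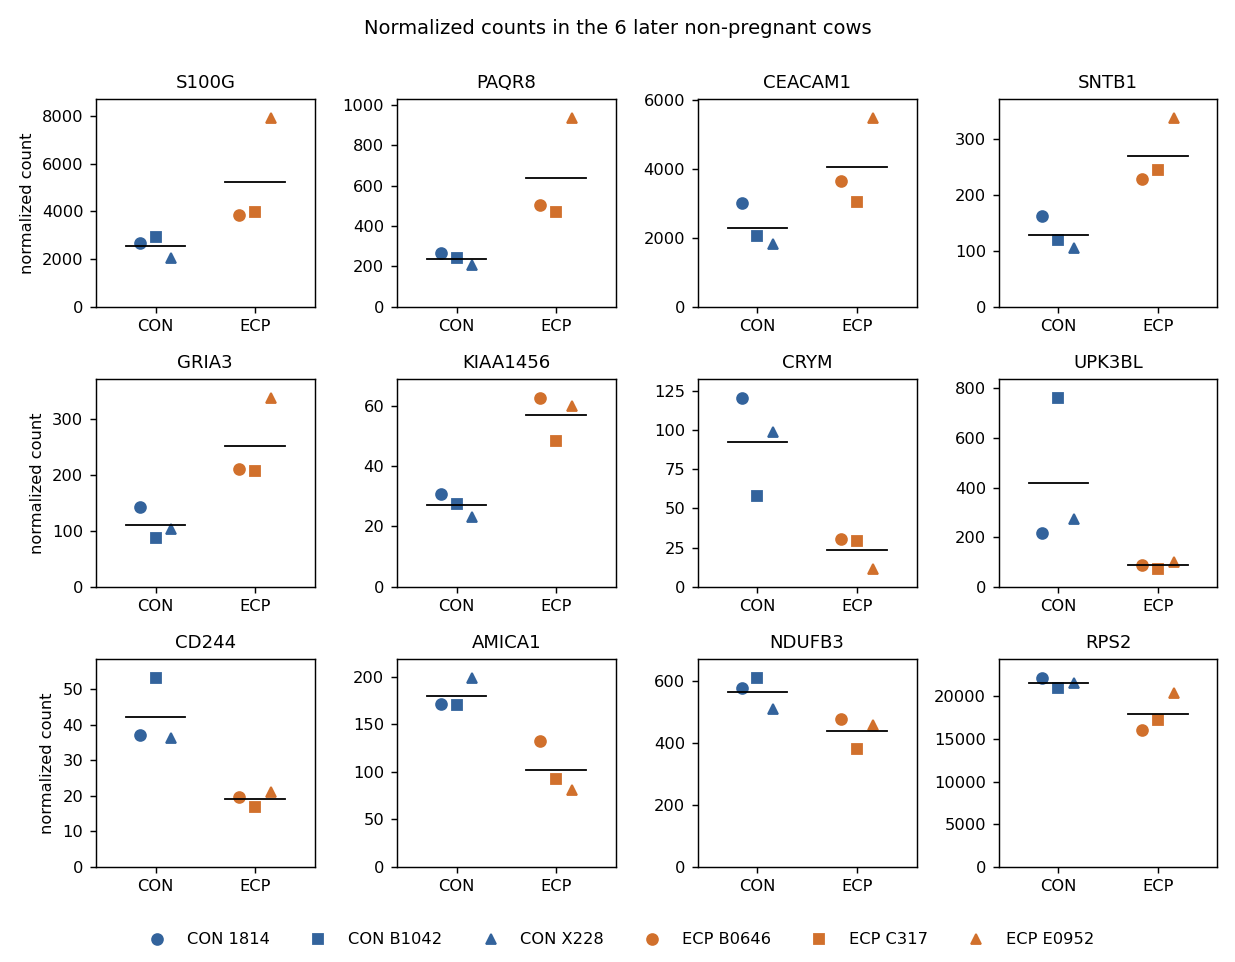
Normalized counts (vertical axes, starting at 0) of 12 genes in the 3 CON and 3 ECP cows that were later not pregnant, where each point is a cow, its shape and color name the cow, and the black line is the group mean. In all 12 panels the ECP and CON points are separate, E0952 stands high in S100G and PAQR8, and B1042 stands high in UPK3BL. The 12 genes were picked from the set chosen on these cows, and other named genes, such as PEPD and MGST1, overlap. Over all genes tested, 7.08% were apart and higher in ECP and 7.78% apart and lower.

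The role lists described next hold only genes of that chosen set. In it 48 of the 68 higher genes were apart between the groups and 59 had an unadjusted p under 0.05, against 7.08% and 3.56% of all genes tested. Of the 55 lower genes 41 were apart and 39 had such a p, against 7.78% and 3.3%. No member of any list passed the edgeR adjustment, and the lists were not tested for enrichment.

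The listed adhesion molecules went both ways. CEACAM1, an adhesion molecule of epithelium and leukocytes, was at 3003, 2046 and 1834 in CON and 3668, 3037 and 5490 in ECP. The lowest ECP cow was just above the highest CON cow, and the log2 fold change was 0.83 (SE 0.23), with an adjusted p of 0.71 in edgeR and 0.11 in DESeq2. Without E0952 it was 0.55. ST8SIA4, which builds polysialic acid on glycoproteins, had a log2 fold change of 0.43 (SE 0.16), and MGAT5, which branches N-glycans, had one of 0.65. Of the 5 genes for adhesion and glycosylation, 3 were higher and 2 lower in ECP, and UPK3BL and AMICA1 were the lower ones.

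The 5 genes placed in the leukocyte list, all from the chosen set, had lower means in ECP, at a median log2 fold change of -0.82. The lists share members: AMICA1 is counted in the adhesion list too, and ALOX5 in that for steroid and lipid metabolism, where its value is given. Of the 5 genes in the leukocyte list, 3 did not reach an unadjusted p under 0.05, which 39 of the 55 lower genes of the chosen set did. CEACAM1, which leukocytes also express, was not in the leukocyte list and was higher. CD244, a receptor of natural killer and T cells, was at 37.1, 53.1 and 36.2 in CON and 19.6, 16.7 and 21.1 in ECP. AMICA1, a junctional adhesion molecule of leukocytes, was at 171, 171 and 199 in CON and 132, 92.2 and 81.1 in ECP. These 2 did not overlap between groups and had an unadjusted p under 0.05, at log2 fold changes of -1.14 (SE 0.32) and -0.82 (SE 0.23). CXCL14, a chemokine, did overlap, with 534, 202 and 755 in CON against 227, 269 and 280 in ECP, where CON cow B1042 was the lowest of all. Its log2 fold change of -0.94 (SE 0.44) was -0.50 without X228. SAMSN1, an adaptor protein of lymphocytes, had an ECP cow, B0646, within the CON range, at 136 against 132 to 142. None of the cell type markers could be matched, those of leukocytes included, so whether fewer leukocytes were sampled was not tested. Whether the listed genes, CXCL14 among them, came from leukocytes in these biopsies was not tested either.

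The list named steroid and lipid metabolism also holds genes that are not enzymes of it, such as the receptor PAQR8 and the thyroid hormone binder CRYM. PAQR8 was its 1 higher gene and 4 were lower, CRYM included. MGST1, a microsomal glutathione transferase, was at 910, 2388 and 1177 in CON and 619, 682 and 936 in ECP. CON cow B1042 was the highest, E0952 was above 1814, and the log2 fold change of -1.0 (SE 0.31) was -0.48 without B1042. ACSF2, an acyl-CoA synthetase, had a log2 fold change of -0.34 (SE 0.14), which was -0.19 without X228. ALOX5, the 5-lipoxygenase that starts leukotriene synthesis, had one of -0.38 and did not reach an unadjusted p under 0.05.

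The 6 listed matrix and peptidase genes had higher means in ECP, at a median log2 fold change of 0.73. All 6 had an unadjusted p under 0.05, as had 59 of the 68 higher genes of the chosen set and 3.56% of all genes. Only 3 of the 6 were apart between the groups, against 48 of those 68 and 7.08% of all genes. ADAM9, a membrane peptidase, was among those that overlapped, with C317 at 580 within the CON range of 510 to 632. ASPN, asporin, a proteoglycan of the matrix, was at 626, 722 and 690 in CON and 1301, 814 and 1339 in ECP. ADAMTSL1, a matrix protein related to the ADAMTS peptidases, was at 52.6, 32.2 and 40.6 in CON and 89.0, 79.9 and 59 in ECP. PI15, a peptidase inhibitor, was at 308, 213 and 606 in CON and 618, 763 and 796 in ECP, so that its groups were apart by little, and its log2 fold change of 0.95 (SE 0.35) was 1.48 without X228. PEPD, which splits dipeptides that end in proline as collagen is broken down, overlapped: 4250, 3498 and 4002 in CON against 4157, 6226 and 7993 in ECP. Its log2 fold change of 0.65 (SE 0.21) was 0.41 without E0952.

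The 5 listed transport genes, all from the chosen set, had higher means in ECP. Only 2 of the 5 were apart between the groups, against 48 of the 68 higher genes of that set and 7.08% of all genes. An unadjusted p under 0.05 was found for 4 of the 5, against 59 of those 68 and 3.56% of all genes. GRIA3, a subunit of the AMPA glutamate receptor, was at 142, 87.2 and 103 in CON and 210, 208 and 338 in ECP, a log2 fold change of 1.19 (SE 0.34). SLC38A1, a glutamine transporter, was at 205, 161 and 261 in CON and 248, 382 and 423 in ECP, with B0646 inside the CON range. CLIC5, a chloride channel protein, showed the same order, as B0646 at 213 was below B1042 at 227. SLC41A1, a magnesium transporter, was at 130, 102 and 123 in CON and 160, 157 and 170 in ECP, without overlap and at a log2 fold change of 0.46 (SE 0.18).

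Of the 7 listed gene IDs for signalling, 6 had higher means in ECP, and CAMK1 was the exception. PDE8A, which degrades cyclic AMP, was at 337, 351 and 427 in CON and 526, 504 and 510 in ECP. PIK3R3, a regulatory subunit of phosphoinositide 3-kinase, was at 233, 244 and 265 in CON and 291, 344 and 334 in ECP. Both were separate between groups, at log2 fold changes of 0.47 (SE 0.13) and 0.39 (SE 0.13). PTCH1, the Hedgehog receptor, is on 2 gene IDs, with log2 fold changes of 0.66 (SE 0.27) and 0.75 (SE 0.34), and B0646 was within the CON range on both. The second was 1.19 without X228.

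Among transcription and chromatin genes, RUNX2, a runt transcription factor, had the highest change. It was at 62.9, 32.2 and 50.5 in CON and 106, 107 and 175 in ECP, a log2 fold change of 1.41 (SE 0.47). CBFB, the subunit with which runt factors bind DNA, was at 302, 334 and 420 in CON and 476, 450 and 505 in ECP, a log2 fold change of 0.44 (SE 0.15). Both groups were separate, and 4 of 5 genes for transcription factors were higher. Of 6 chromatin regulators 5 were higher, but only PHF20L1 among these 5 had an unadjusted p under 0.05. EZH2, the methyltransferase of Polycomb complex, was at 173, 161 and 159 in CON and 252, 161 and 306 in ECP, where C317 lay among the CON cows.

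Of the 6 listed cell division and cytoskeleton genes, 5 had higher means in ECP, with MYL3 the lower one. SNTB1, a syntrophin of the dystrophin complex, was at 270 ± 59.2 in ECP and 128 ± 29.8 in CON (SD, n = 3), without overlap and at a log2 fold change of 1.07 (SE 0.30). CENPH, a kinetochore protein, was at 96.9, 63.5 and 93.3 in CON and 127, 140 and 147 in ECP, a log2 fold change of 0.71 (SE 0.21). DNAL1, a dynein light chain, had a log2 fold change of 0.78 (SE 0.25). In membrane traffic 5 of 7 were higher, among them STON1, an endocytic adaptor, at 699, 745 and 758 in CON and 967, 1074 and 1187 in ECP.

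The 4 listed respiration genes had lower means in ECP, by small amounts. NDUFB3, a subunit of complex I, was at 576, 610 and 508 in CON and 476, 379 and 457 in ECP. ATP5J and ATP5F1, subunits of ATP synthase, had log2 fold changes of -0.33 (SE 0.13) and -0.25 (SE 0.10), and IDH3B, of the citric acid cycle, one of -0.27 (SE 0.12). Their median was -0.30. All 4 were apart between the groups and had an unadjusted p under 0.05, as 41 and 39 of the 55 lower genes of the chosen set did, against 7.78% and 3.3% of all genes. In glycolysis, HK2, hexokinase, had a log2 fold change of 1.01 (SE 0.48) and GPI, glucose phosphate isomerase, one of -0.33 (SE 0.15). Neither had an unadjusted p under 0.05, and both overlapped between the groups. HK2 was at 0.65 without E0952 and GPI at -0.21 without B1042.

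The 7 listed ribosome and translation genes had lower means in ECP, at a median log2 fold change of -0.28. An unadjusted p under 0.05 was found for 3 of the 7, against 39 of the 55 lower genes of the chosen set and 3.3% of all genes. EEF1D, a subunit of elongation factor 1, was at 4389, 4074 and 4271 in CON and 3336, 3078 and 3509 in ECP. RPS2, of the small ribosomal subunit, was at 22157, 21028 and 21592 in CON and 15988, 17233 and 20395 in ECP. E0952 was the closest to CON, and the log2 fold changes were -0.36 (SE 0.11) and -0.27 (SE 0.11). RPS27 and RPL39, at -0.34 (SE 0.18) and -0.24 (SE 0.15), overlapped between the groups, and RPS27 was at -0.17 without 1814. Ribosomal protein genes have near-identical copies, and only uniquely mapped reads were counted, so their values are uncertain.

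The 5 listed splicing genes had lower means in ECP, at a median log2 fold change of -0.26. All 5 were without overlap, as were 41 of the 55 lower genes of the chosen set and 7.78% of all genes. An unadjusted p under 0.05 was found for 4 of the 5, against 39 of those 55 and 3.3% of all genes. STRAP, at a log2 fold change of -0.16 (SE 0.09), did not reach it. GEMIN7, of the SMN complex, was at 133, 123 and 134 in CON and 102, 90.4 and 103 in ECP, a log2 fold change of -0.40 (SE 0.17). SNRPD2, a core Sm protein, had -0.26 (SE 0.11). Among proteasome and chaperone genes, PSMB4, HSPE1 and EMC4 were lower and UBE4A was higher, at log2 fold changes of -0.28 (SE 0.09), -0.31 (SE 0.11), -0.18 (SE 0.08) and 0.31 (SE 0.11), all without overlap.

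**Figure D3:**
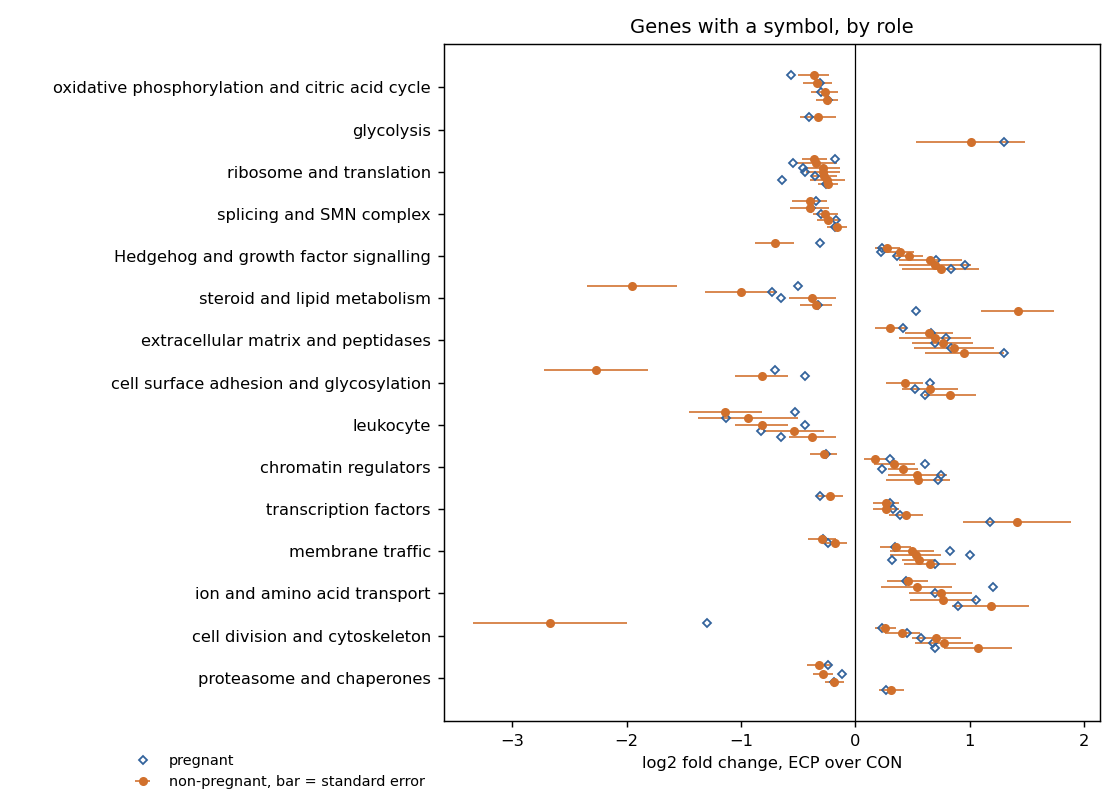
Log2 fold change of ECP over CON (horizontal axis) for the genes with a symbol in 15 role lists (vertical axis), as filled points with standard errors for the later non-pregnant cows and as open diamonds for the later pregnant cows. The listed leukocyte, respiration, ribosome and splicing genes lie left of 0, and matrix and transport genes lie right of 0 in both sets of cows.

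Libraries of these cows fell in 2 classes of mapped share, a lower one with B0646, C317 and B1042 and a higher one with E0952, 1814 and X228, so ECP had 2 of the lower class and CON 1. Of the 123 genes, 121 kept their direction within both classes, where 1 cow stood against 2 in each. These genes were chosen on these cows, and the 48 higher and 41 lower ones without overlap keep their direction in any such split. Their count therefore cannot show whether the class matters. Of all 15161 genes, 8921 had the same sign in both. Within the lower and the higher class, the log2 ratio of mean normalized counts was -3.24 and -1.29 for UPK3BL, -0.95 and -3.19 for CRYM, 1.00 and 1.99 for PAQR8, and 0.42 and 1.74 for S100G. With the class as a term, edgeR called 0 genes, with 1196 at an unadjusted p under 0.05. The genes outside the 121 were CXCL14, at 0.29 and -1.20, and GPI, at -0.67 and 0.018.

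Principal components did not order the 6 cows by group alone. C317 and E0952 had the highest scores on component 1 (25.8% of the variance), at 38.0 and 38.7. B0646, the remaining ECP cow, was at -9.78 and next to CON cow 1814 at -9.93. Rank correlations between cows of the same group were 0.968 to 0.977, and those between cows of different groups were 0.965 to 0.977, so that no pair stood out as a repeated library. Among the 68 named genes higher in ECP, E0952 was the highest ECP cow in 35, C317 in 18 and B0646 in 15. Among the 55 lower, C317 was the lowest in 24, B0646 in 16 and E0952 in 15. Over all genes higher in ECP, these shares were 38.3%, 33.6% and 28.1% for E0952, C317 and B0646. Over all genes lower in ECP, they were 37.5%, 34.4% and 28.1%, so that E0952 was most often the lowest over all genes and, with 15 against 16 in B0646, least often among the named genes.

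**Figure D4:**
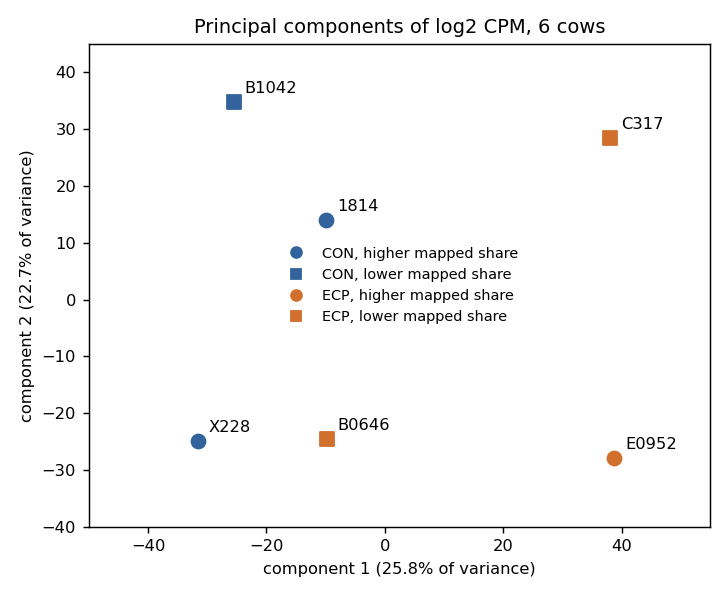
Scores of the 6 later non-pregnant cows on principal components 1 and 2 of log2 CPM, the library-scaled counts (axes, with the share of variance), colored by group and shaped by the class of mapped share. ECP cows C317 and E0952 lie to the right, and ECP cow B0646 lies on the side of the 3 CON cows.

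Circulating P4 at the biopsy was 3.65 ± 0.94 ng/mL (SD, n = 3) in ECP and 3.39 ± 0.509 ng/mL (SD, n = 3) in CON. The ECP cows had 4.73, 3.16 and 3.05 ng/mL (B0646, C317 and E0952) and the CON cows 3.57, 3.79 and 2.82 ng/mL (1814, B1042 and X228). The groups overlapped, and B0646 was the highest of the 6. The study selected cows with similar P4 at the biopsy for sequencing, so a test in them cannot show whether ECP changed P4. The difference of 0.25 ng/mL had p = 0.8 in an exact permutation test, two-sided, where 0.1 is the smallest p that 3 cows against 3 can give. The difference was -0.29 without B0646 and -0.033 without X228. With P4 as a term, edgeR called 0 genes.

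The later pregnant cows gave the same comparison in 6 other cows, and the difference between both comparisons was tested as the interaction of treatment and pregnancy status. No gene passed with edgeR, where the lowest adjusted p was 0.3, and 800 had an unadjusted p under 0.05 (5.28%). DESeq2 called 15 (0.0989%), and limma voom called 0. Across the 15161 genes the log2 fold changes of the 2 sets had a Pearson r of 0.04, a value across genes, which are not independent, and 54.8% had the same sign. Of the 100 genes of lowest p in the non-pregnant cows, 58 had the same direction in the pregnant cows and 8 of these an unadjusted p under 0.05. Their median absolute log2 fold change was 0.93, and in the pregnant cows their median was 0.03 in the direction chosen. Starting from the 100 genes of lowest p in the pregnant cows, 65 had the same direction in the non-pregnant cows. Of the 59 genes that DESeq2 called in the non-pregnant cows, 1 was also among its 40 calls in the pregnant cows.

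All of the 123 named genes had the same direction in both sets, which their choice over the 12 cows favored. The absolute log2 fold change had a median of 0.47 in the non-pregnant cows and 0.52 in the pregnant cows, and 57 were larger in the former and 66 in the latter. S100G was nearly equal, at 1.04 and 1.03, while PAQR8 was at 1.42 and 0.53, with an interaction of 0.89 (SE 0.45) and an unadjusted p of 0.071. CRYM was at -1.95 and -0.50 and UPK3BL at -2.27 and -0.71. These were the 2 genes with a symbol whose interaction had an unadjusted p under 0.05. RPL39 was at -0.24 and -0.64, with an interaction p of 0.087 before adjustment.

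**Figure D5:**
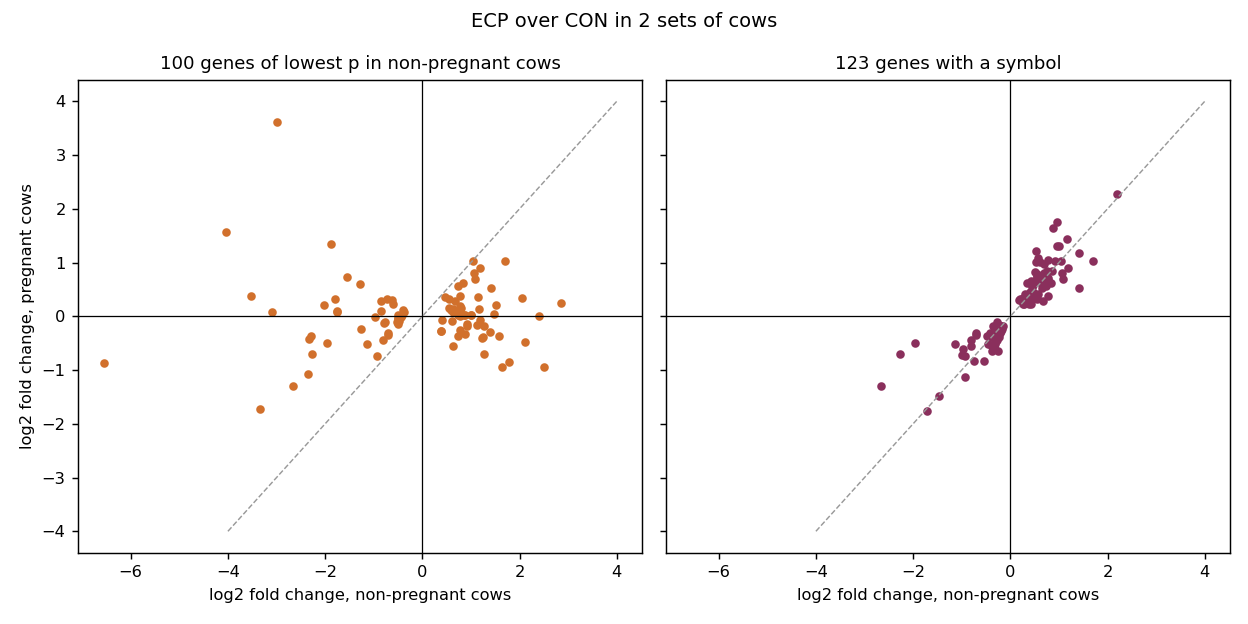
Log2 fold change of ECP over CON in the later pregnant cows (vertical axis) against that in the later non-pregnant cows (horizontal axis), for the 100 genes of lowest p in the non-pregnant cows (left) and the 123 genes with a symbol (right), where the dashed line marks equal values. On the left 58 of 100 points have the same sign on both axes, and on the right all 123 do, as genes chosen over both sets of cows.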

How the data were processed

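After trimming and alignment to masked UMD 3.1, the authors counted uniquely mapped reads of each gene, and they deposited these raw counts under Ensembl IDs without normalization. Tools in the submitters' processing notes are HTSeq 0.5.4p2 for counting, SAMtools 0.1.18, DESeq 1.12.1, Bowtie2 2.1.0 as the aligner and CASAVA 1.8.2. The use of strand in counting was not given in the sources used here; thus overlapping and antisense genes cannot be told apart.

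Counts of all 12 cows were scaled by TMM and fitted by quasi-likelihood in edgeR 4.0.16, run in R 4.3.3, with 1 mean per treatment and pregnancy status, which shares the spread over 8 residual degrees of freedom. Genes with a mean normalized count above 5 were tested, and p-values were adjusted over them by the method of Benjamini and Hochberg, with a threshold of 0.10. Standard errors are the log2 fold change over the root of F. Counts printed per cow were divided by DESeq2 size factors. DESeq2 1.42.0, limma 3.58.1 (voom), other scalings, filters, covariates and each cow left out were alternatives, and scripts were tested on simulated data. P4 was compared with an exact permutation test. Figures were drawn in Python 3.11.15 with matplotlib 3.10.9. Classes of mapped share came from the study's read numbers.

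Depth was 10662044 to 13245891 counts per cow, and with a common biological coefficient of variation of 0.267 the variation between cows limits precision.

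Symbols came from the study's gene list, and the reference table used here pairs 0 of 34142 rows with an Ensembl ID, so no sequence, coordinate or marker list is given. Comparison, lists and members were chosen with earlier results of these data known. Named genes were the 10 with a symbol of lowest p in each direction, up to 4 of each role list, 2 IDs without a symbol in each direction, the 4 symbols of lowest interaction p, and those that the study names. MGAT5 and ALOX5 were named beside these after their values were seen. 1 gene is not reported here.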

Additional observations from a re-analysis of the deposited data

Results flagged for a closer look

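ECP against CON differed between the later non-pregnant and the later pregnant cows, by an unadjusted interaction p under 0.05, in 6 of the genes named. No interaction passed the edgeR adjustment. ENSBTAG00000023600 had an interaction p of 1.99e-05, with log2 fold changes of 1.63 in the non-pregnant and -0.95 in the pregnant cows. Its adjusted interaction p was 0.3 with edgeR and 1.9e-07 with DESeq2. ENSBTAG00000010531 had an interaction p of 0.0022 (1.48 and 0.05), ENSBTAG00000019683 one of 0.0032 (-1.75 and 0.10), and ENSBTAG00000038949 one of 0.024 (-0.80 and -0.12). CRYM had 0.0204 (-1.95 and -0.50) and UPK3BL 0.028 (-2.27 and -0.71). These genes had been named for a low p in the non-pregnant cows, so a larger difference there was favored by the choice, and 800 of 15161 genes had such an interaction p.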

How the results depend on the processing

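edgeR called 0 genes in the non-pregnant cows and 0 interactions under every scaling, filter, covariate, robust fit and left-out cow, and limma voom called 0 of each. The exceptions were DESeq2, with 59 genes and 15 interactions with or without its own filtering, and edgeR on the 6 cows alone, with 1 gene. Added after seeing the data, DESeq2 on the 6 cows alone called 114. Genes at an unadjusted p under 0.05 numbered 1041, and 619 (without E0952) to 1213 (without B0646) as each cow was left out. DESeq2 calls were 21 to 116 and edgeR calls in the 6 cows alone 0 (without B0646 or E0952) to 2 when a cow was left out, both added later. Leaving out the pregnant cow X156 gave 1140 genes at an unadjusted p under 0.05 and 73 DESeq2 calls. Genes without overlap numbered 2253, and 2211 to 2445 under other scaling and filters. Of the 1041 genes, 51.9% were higher in ECP, and with upper quartile scaling 47.2%. The P4 difference ranged from -0.29 to 0.55 ng/mL with 1 cow left out. None of the 74 named genes reversed its direction in any refit, over 1480 pairs of a gene and a setting. The refits shared most of their cows, and the choice of the genes on these cows favored a stable direction. No paired analysis was possible because the groups held different cows and the labels do not pair them. The 3 cows of each group limit which small differences can be called.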
